A study of Bos taurus with 20 samples.

Results

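The genes of the mitochondrial ribosome described here were all 75 genes on a bovine expression array whose name in the array files began with MRPL or MRPS followed by a digit. MRPS15 was not among them, since its 4 probes carry no gene name in the files and were matched to it by accession alone. They were 75 of the 22518 genes measured, and they were read by 182 of the 61325 probes that were not controls. Of these names, 47 were MRPL and 28 were MRPS. By the place of the protein in the ribosome, 49 belonged to the large subunit and 25 to the small subunit, since MRPS18A and MRPS30 carry an MRPS name but sit in the large subunit. The remaining gene, MRPS36, encodes a protein that is now assigned to the alpha-ketoglutarate dehydrogenase complex. Of the 74 ribosomal members, 45 have a counterpart in the bacterial ribosome and 29 are found only in mitochondria.

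Expression had been measured in the compartments of the bovine antral follicle, with 5 groups of 4 arrays. The groups were theca cells (TH) scraped from the follicle wall, granulosa cells (GC), cumulus cells (CC) taken before culture, cumulus cells after 4 h of in vitro maturation (CC-IVM), and oocytes (OO). All came from ovaries collected at slaughter, all were labelled immature, and no genotype, animal age or agent was given. The methods called the replicates biological, but the animals or cells behind each were not stated, so p-values measure the spread between these samples. The 12 arrays of TH, GC and CC are called somatic below, and the somatic mean is the mean of their 3 group means.

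The mitoribosome translates the messages of the mitochondrial genome, which encode membrane subunits of the respiratory chain and of ATP synthase. Its RNAs are copied from mitochondrial DNA, whereas its proteins are encoded in the nucleus, made by cytosolic ribosomes and imported. The oocyte carries the mitochondria that the embryo inherits, and it stores messenger RNA for use before the embryo transcribes its own genes.

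Every array was hybridised with Cy3-labelled copies of 200 ng of total RNA, so a difference is one of share within the RNA, and in such bulk samples fewer cells of a type and less RNA per cell cannot be told apart. Levels are the processed fluorescence intensity on a log2 scale, centred so that 0 is the 75th percentile of the array's own probes. The OO arrays were brighter, with 75th percentiles of 1521 to 2891 against 284 to 1101 on the others, and replicate 2 of OO had the smallest share of probes well above background, 49.3%. The summed linear signal of 8 oocyte markers was 278 to 366 on the OO arrays and at most 4.45 on any other. The summed signal of 6 theca markers was 579 to 836 on the TH arrays and at most 115 elsewhere, although 1 of the 6, STAR, was higher in OO (mean 3.43) than in TH (2.27). A gene was counted as well above background on an array if any of its probes was. By this rule all 75 members were well above background on every array except OO replicate 2, where MRPL28 and MRPL43 were not. Of the 182 member probes, 169 (OO replicate 2) to 181 were well above background on an array.

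Each member was read by at least 2 different probe sequences of 60 bases, 156 in all. The first 30 bases, or the stretch named, are shown for the genes on which the results turn, because several calls depend on which probe is read. Capitals mark a run of at least 20 bases that another probe of the same gene also holds, and coordinates are those the array files give on UMD 3.1. MRPS31 (chr12:21854977-21880339), MRPL32 (chr4:78816512-78821610) and MRPS34 (chr25:1349893-1351145) are shown as genes whose probes gave like values. In these genes probe 1 shares 54, 54 and 43 of its bases with the other probe, so the probes are not separate readings.
MRPS31 probe 1: aagaaaGTGGCATAAACTTTAGTTGAAGAC
MRPL32 probe 1: gatgtaGCTTCAAACATCCTTTATAAGCAG
MRPS34 probe 1: AGGATTTACGTTTTCGTAGAAAGGGTGCGG

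MRPL53 (chr11:10141776-10144861) and MRPS28 (chr14:45279168-45491347) are shown because their probes disagreed. The MRPL53 pair shares no such run, whereas the MRPS28 pair overlaps by 30 bases, so bases 29 to 58 of its probe 2 are given.
MRPL53 probe 1: tgcttagtgcctgataagcagtgtgcaata
MRPL53 probe 2: tgctatatagtcagggtacctactaccaat
MRPS28 probe 1: CCCGTTCTTTCCTTTTATTGGGAAAGCATA
MRPS28 probe 2: tgCCCGTTCTTTCCTTTTATTGGGAAAGCA

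MRPL12 had 5 probe sequences on 3 annotated transcripts. The transcript MRPL12-202 spans chr19:51718482-51724309 and MRPL12-203 spans chr19:51727457-51731626, with no base in common, while MRPL12-201 spans both (chr19:51718461-51731674). Probes 1, 3 and 4 read the side of MRPL12-202, and probes 2 and 5 the side of MRPL12-203. In the RefSeq table, of the assembly ARS-UCD2.0, SLC25A10 lies directly beside MRPL12, and no gene on the array is named SLC25A10.
MRPL12 probe 1: tggtatcCGCCTCATGCCCCACACCGTGCT
MRPL12 probe 3: tggatgtgctgaagactcggctgatgaatg
MRPL12 probe 4: CGCCTCATGCCCCACACCGTGCTTACGTTC
MRPL12 probe 2: tccaggcaaagaagctggtggaatccctgc
MRPL12 probe 5: ccgtggacaaggtgaagctgatcaaggaga

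The first question was how the mitoribosome genes of the oocyte compared with those of the cells around it. In OO, 42 of the 75 members were more highly expressed than the somatic mean, 18 were lower and 15 did not pass the test (limma, adjusted p under 0.05). The 60 that passed compare with 71.3% of all genes, and the F-test over TH, GC, CC and OO also called 60 members and 71.3% of all genes. Over all 22518 genes, 32.9% were higher and 38.3% lower by the same rule, against 56.0% and 24.0% of the members. In the deposited median-centred values the split of the members was 53 higher and 13 lower, against 34% and 56.1% of all genes. Among genes well above background on all 16 arrays, 45.1% were higher and 38.3% lower, against 57.5% and 23.3% of the 73 members that met this filter. The median member difference was 0.64 on the log2 scale, with quartiles of -0.49 and 1.45. The median over all genes was -0.52, and over genes above background it was 0.19. The whole family spanned -3.47 to 3.57, so it did not move as a block.

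Groups were often separated without overlap. In 36 members all 4 OO arrays exceeded all 12 TH, GC and CC arrays, against 25.3% of all genes, and in 12 members all 4 lay below them, against 20.6%. OO was higher than each of TH, GC and CC in 38 members by separate tests, against 26.6% of all genes, and lower than each in 14, against 24.4%. The highest of the 4 cell type means belonged to OO in 44 members, against 34.4% of all genes. The lowest belonged to OO in 23 members, against 53.2%, and to TH in 32, against 22.9%. The genes of the cytosolic ribosome went the other way: 81 of 82 were lower in OO and 1 was higher, with a median of -2.69.

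**Figure D1:**
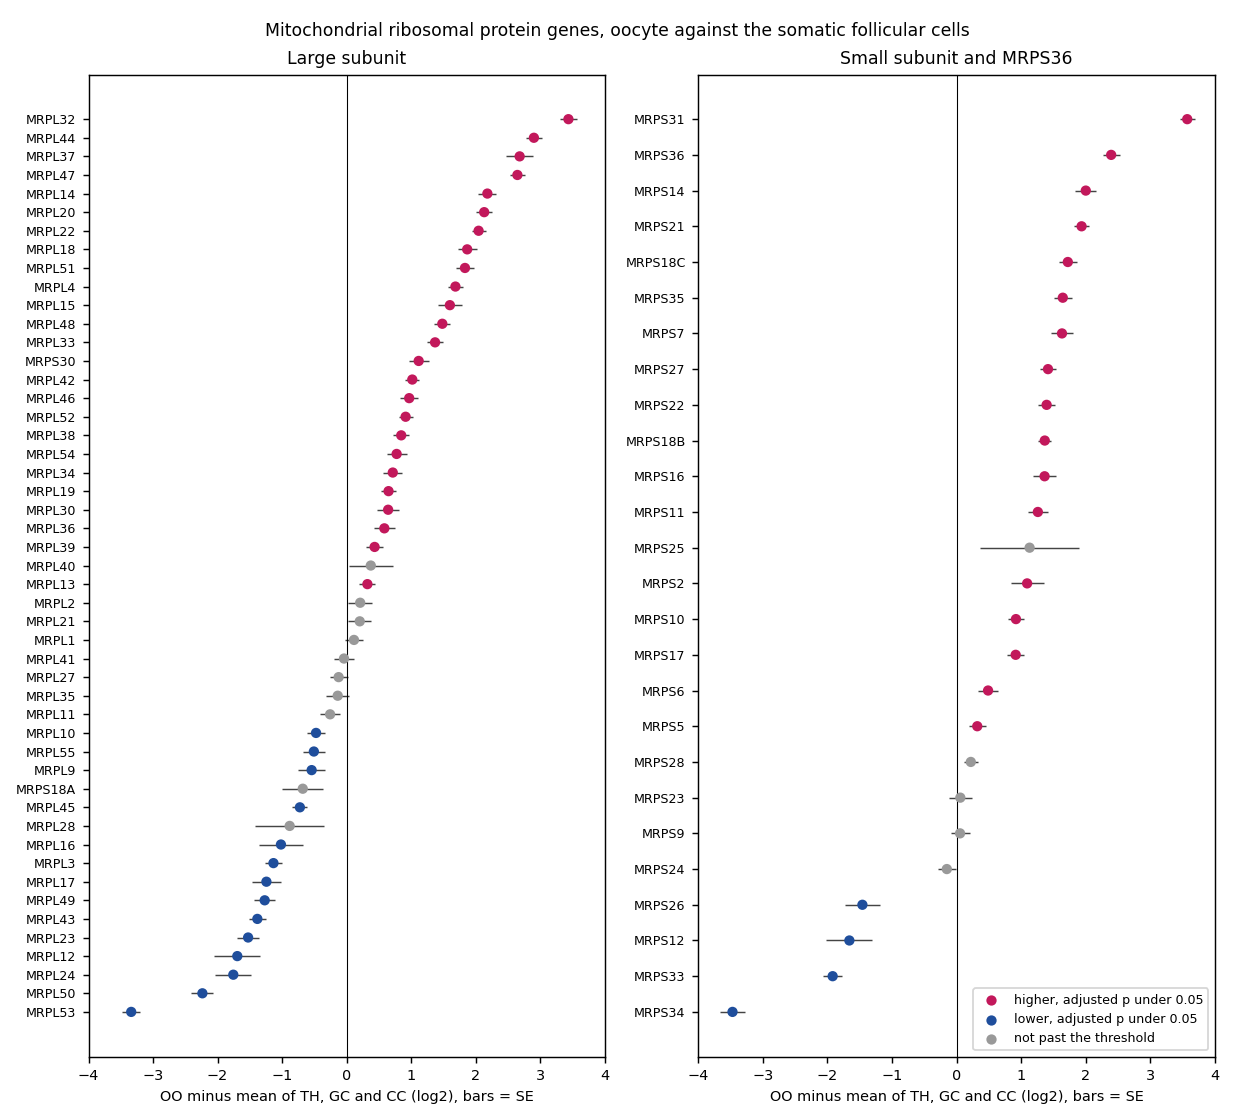
Difference of each of the 75 mitochondrial ribosomal protein genes between OO and the somatic mean in log2 units, with its standard error and n = 4 arrays per group, ordered by size and marked by whether it passed the test. The differences run from -3.47 for MRPS34 to 3.57 for MRPS31, and 42 of the 60 that passed lie above 0.

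Proteins of the large subunit were split. Of 49 genes, 25 were higher in OO and 14 lower, with a median of 0.37. The small subunit had 16 of 25 higher and 4 lower, with a median of 1.09. Members with a bacterial counterpart (median 0.49, 25 higher and 10 lower of 45) and those found only in mitochondria (median 0.84, 16 higher and 8 lower of 29) had the same kind of split, and no difference between these classes was tested.

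Of the large subunit, MRPL32, whose precursor must be trimmed by a mitochondrial protease before the subunit can assemble, had the largest rise. It read 2.00, 1.72, 2.15 and 1.78 on the OO arrays. The TH arrays read -1.67, -1.41, -1.90 and -1.32, those of GC -1.20, -1.49, -1.23 and -1.09, and those of CC -1.79, -1.72, -1.58 and -1.86. The somatic groups thus lay close together, and every OO array was far above them. The difference was 3.43 ± 0.13 (SE, n = 4 OO arrays, limma adjusted p = 2.24e-12).

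MRPL44 (chr2:112851020-112858967) carries a ribonuclease-like fold and is linked to inherited cardiomyopathy. Its OO arrays read 2.18, 1.93, 2.05 and 2.03, while no TH, GC or CC array exceeded -0.32. The rise was 2.90 ± 0.13 (SE, limma adjusted p = 8.25e-12), and the groups did not overlap.

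MRPL37 (chr3:92586247-92603659), a protein with no bacterial counterpart, read 5.35, 4.95, 5.06 and 5.04 in OO. The highest somatic array was GC replicate 4 at 3.11, so the groups stood apart despite a wide somatic spread. It rose by 2.68 ± 0.21 (SE, limma adjusted p = 1.02e-08). MRPL47, MRPL14 and MRPL20, which do have bacterial counterparts, rose by 2.64, 2.18 and 2.13 with no overlap, and the levels of MRPL20 in OO were 6.02, 5.74, 5.88 and 5.92 against at most 4.15 elsewhere in TH, GC and CC.

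Of the small subunit, MRPS31 had the largest rise of all members. It read 4.24, 4.08, 4.29 and 4.12 in OO. In TH it read 0.49, 0.59, 0.52 and 0.63, in GC 0.54, 0.70, 0.86 and 1.10, and in CC 0.58, 0.31, 0.50 and 0.49. The OO arrays agreed within a narrow range and lay above every other array. The difference was 3.57 ± 0.12 (SE, limma adjusted p = 2.7e-13), a fold of 11.9.

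MRPS14 rose by 2.00, MRPS18C by 1.72, MRPS22 by 1.40, MRPS18B by 1.37 and MRPS16 by 1.36, each with no overlap. MRPS16 and MRPS22 were among the first mitoribosome genes tied to human disease, and MRPS18B and MRPS18C are related copies that occupy different places in the small subunit. The other copy, MRPS18A of the large subunit, differed by -0.68 ± 0.32 (SE, limma adjusted p = 0.0669). The copies therefore did not share one pattern. MRPS30, the other large subunit protein with an MRPS name, rose by 1.11, and MRPS36, which is not ribosomal, rose by 2.40.

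The largest fall was that of MRPS34, a small subunit protein without a bacterial counterpart that is linked to Leigh syndrome. It read -1.05, -1.18, -0.98 and -1.06 in OO. TH read 2.23, 2.24, 2.28 and 3.14, GC 2.44, 1.84, 2.11 and 2.69, and CC 2.04, 2.41, 2.57 and 2.85. All OO arrays were below 0 and all somatic arrays at 1.84 or above, with TH replicate 4 the highest. The gene fell by 3.47 ± 0.20 on the log2 scale (SE, limma adjusted p = 2.06e-10). Its probes, which share 43 bases and so are not separate readings, gave -3.61 and -3.33.

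MRPL50 (chr8:92744050-92751166) read 0.16, 0.16, 0.32 and 0.14 in OO, against 1.51 to 1.87 in TH, 2.17 to 3.09 in GC and 2.83 to 3.12 in CC. It fell by 2.24 ± 0.17 (SE, limma adjusted p = 7.45e-09) with no overlap. MRPS33 read 1.79, 2.32, 2.46 and 2.16 in OO against 3.68 to 4.45 in the somatic cells, a fall by 1.92 ± 0.15 (SE, limma adjusted p = 9.58e-09). MRPL23 read 2.67, 2.66, 2.58 and 2.68 in OO against 3.83 to 4.71, a fall by 1.53. MRPL24 fell by 1.76 and MRPS26 by 1.46, and both had wide somatic spreads led by TH replicate 4 and CC replicate 2 respectively.

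Proteins at the functional centres were spread over the distribution. MRPL3, at the peptidyl transferase centre, fell by 1.14 with no overlap. MRPS12, of the decoding site, differed by -1.66 ± 0.36 (SE, limma adjusted p = 0.000615), but OO replicate 1, at -1.97, lay within the somatic range. In the stalk that recruits translation factors, MRPL12 fell by 1.70 and MRPL10 by 0.48, while MRPL11 differed by -0.26 ± 0.16 (SE, limma adjusted p = 0.138). MRPL10 lies entirely within the annotation of SP2, as MRPL14 does within AARS2 and MRPS22 within COPB2. The call of MRPL10 had the opposite sign and did not pass (0.16, limma adjusted p = 0.304) when the deposited median-centred values were used.

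Some members hardly differed. The 4 with the smallest range of group means over TH, GC, CC and OO were MRPL27, MRPL2, MRPL35 and MRPL1. MRPL27 read 4.85, 4.39, 4.66 and 4.59 in OO, within the 4.39 to 5.15 of the somatic arrays, and the difference was -0.13 ± 0.14 (SE, limma adjusted p = 0.405). MRPL2 differed by 0.21 ± 0.19 (SE, limma adjusted p = 0.31), although its probes gave -0.23 and 0.65 and the second passed. MRPL1 likewise had a probe called higher in OO, and the differences given by its probes lay 0.83 apart. MRPS25 was the member with the widest spread in every group: in OO it read 2.18, -1.48, -1.10 and -0.98 and in CC -2.75, -0.07, -2.77 and -2.55. One array thus stood far above the rest in each of these, and its difference of 1.13 ± 0.77 (SE, limma adjusted p = 0.185) did not pass.

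**Figure D2:**
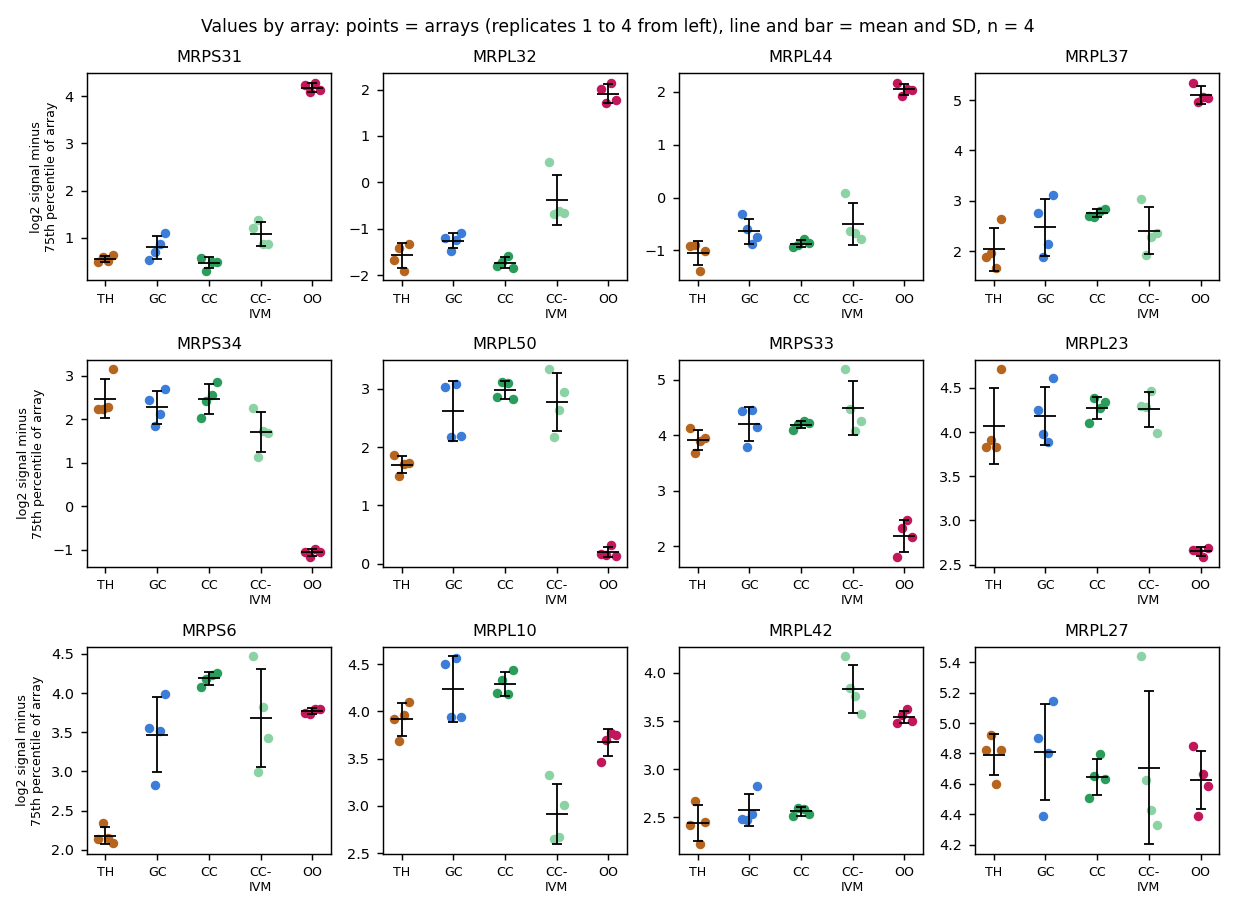
Levels of 12 members on each of the 20 arrays, as log2 intensity relative to the 75th percentile of the array, with a point per array and a line at the mean of each group of 4. MRPS31, MRPL32, MRPL44 and MRPL37 lie higher in OO than in TH, GC and CC, MRPS34, MRPL50, MRPS33 and MRPL23 lower, MRPS6 is lowest in TH, and MRPL10 and MRPL42 differ between CC and CC-IVM.

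Because each gene was read by several sequences, the calls were also made probe by probe. Every probe sequence of the gene was called higher in OO in 39 members, against 27.2% of all genes, and every one lower in 14, against 26.1%. Some of these sequences overlap, as in MRPS31, MRPL32 and MRPS34, so not all are separate readings. The differences given by the probes of a gene lay more than 1 apart in 7 members and more than 2 apart in 3. Those 7 were MRPL12, MRPL28, MRPL43, MRPL53, MRPL54, MRPL55 and MRPS28, and the last 3 counted were MRPL53, MRPL55 and MRPS28. The fall of MRPL43 by 1.38 included a probe that was above background on no array.

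MRPL53, a large subunit protein without a bacterial counterpart, was the extreme case. Probe 1 read -6.15, -6.16, -5.43 and -6.88 in OO, and was well above background on 2 of these arrays, against 0.03 to 1.18 in TH, GC and CC. Probe 2 read 3.30, 3.18, 3.39 and 3.23 in OO, inside the somatic range of 2.66 to 3.81. Probe 1 therefore separated the oocyte from all other cells and probe 2 did not. The difference was -6.62 ± 0.19 (SE) by probe 1 and -0.06 by probe 2 (limma adjusted p = 0.67), so the gene value of -3.34 is the middle of unlike readings. With probe 1 near background in OO, the size of its difference is uncertain. Which of the probes reads the MRPL53 message was not tested.

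MRPS28 gave opposite calls from overlapping probes. Probe 1 read 1.62, 1.61, 1.57 and 1.44 in OO against at most 1.00 in the somatic cells, a difference of 1.31. Probe 2 read 2.85, 2.10, 2.35 and 2.41 in OO, and 2.94 or more in the somatic cells, a difference of -0.86. Both passed the test in opposite directions, and the gene value, 0.22, did not (limma adjusted p = 0.0747). MRPS24 was the other such member, with 0.31 and -0.61. For MRPL54, probe 1 gave 1.48 and probe 2 gave 0.07.

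**Figure D3:**
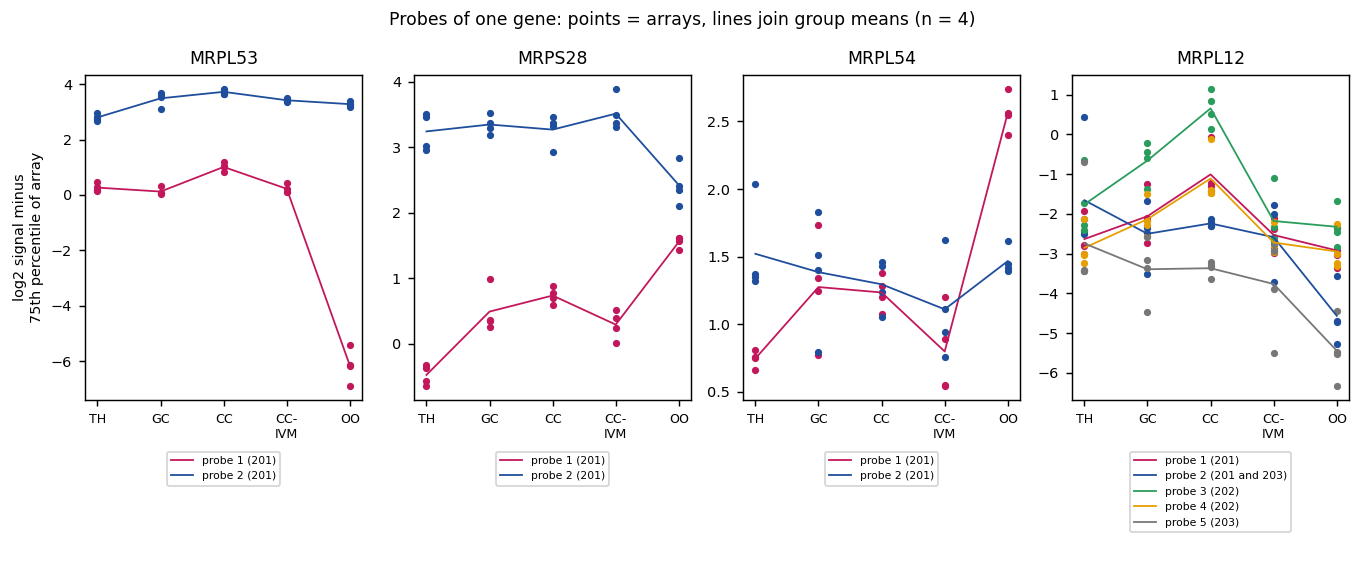
Levels given by the different probe sequences of MRPL53, MRPS28, MRPL54 and MRPL12 on each array, as log2 intensity relative to the 75th percentile of the array, with a colour per probe, a point per array and lines that join the group means (n = 4). Probe 1 of MRPL53 drops to between -5.43 and -6.88 in OO while probe 2 stays between 3.18 and 3.39, and the means of MRPL12 probes 1, 3 and 4 drop from CC to CC-IVM by 1.52 to 2.84.

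The base composition of the probes varied with the oocyte difference. Over the 75 members the difference and the mean GC content of the probes had Pearson's r = -0.41 and Spearman's rho = -0.39, across genes that share arrays and are not independent. Over the 10008 genes above background r was -0.14. Of the 33 members with at most 40% GC, 23 were higher in OO and 7 lower, and of the 16 above 50% GC, 4 were higher and 7 lower. In the same bins of genes above background, 54.3% and 30.3% were higher and 32.6% and 48.1% lower. Of the members in these bins, 69.7% and 25% were higher and 21.2% and 43.8% lower. Above 50% GC the members thus lay near the shares of all such genes. The part of base composition in the result was not tested.

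Genes that work with the mitoribosome were also split in the oocyte. The counts of these and the following lists stand against 32.9% of all genes higher in OO and 38.3% lower. No difference from all genes was tested. Of 7 mitoribosome proteins with other names, 4 were higher and 1 lower, with DAP3 up by 2.02, PTCD3 up by 1.42 and MRP63 down at -3.17. Among 27 assembly factors 12 were higher and 9 lower. DDX28, an RNA helicase of large subunit assembly, rose by 3.20 and RNMTL1, a methyltransferase of the large ribosomal RNA, by 3.21. YBEY, an endoribonuclease, changed by -3.31 and METTL17, needed for the small subunit, by -5.01.

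Among 18 translation factors, 8 were higher and 5 lower, led by GFM2, which recycles the ribosome (2.80), and MTFMT, which formylates the initiator (1.94). LRPPRC, which binds mitochondrial messages, changed by -1.44 and PDF, the deformylase, by -1.72. Of 20 aminoacyl-tRNA synthetases and related enzymes, 5 were higher and 10 lower, with RARS2 at 2.65, PET112L at 1.11, LARS2 at -3.44 and QRSL1 at -5.79. Of 14 genes listed under the copying and transcription of mitochondrial DNA, not all of which do either, 9 were higher and 4 lower. The polymerase subunits parted, since POLG2 rose by 3.64 and POLG changed by -1.51. SUPV3L1 was at 2.13 and HSD17B10 at -1.27.

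The messages that the mitoribosome translates were also on the array. Of 13 mitochondrially encoded protein genes, 12 were lower in OO, with a median of -2.57 over the list, and ND6 was higher (1.39). ND5 and MT-ND4, subunits of complex I, changed by -3.18 and -3.10. Among 21 other mitochondrial proteins 8 were higher and 8 lower, from TIMM23 (3.26) and TIMM44 (2.38) of the import machinery to the chaperonin HSPD1 (-1.79) and the phosphate carrier SLC25A3 (-7.30). Of 10 regulators of mitochondrial genes, 4 were higher and 5 lower, with PPARGC1A at 3.80, GABPB1 at 3.08, YY1 at -1.37 and MYC at -8.04.

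**Figure D4:**
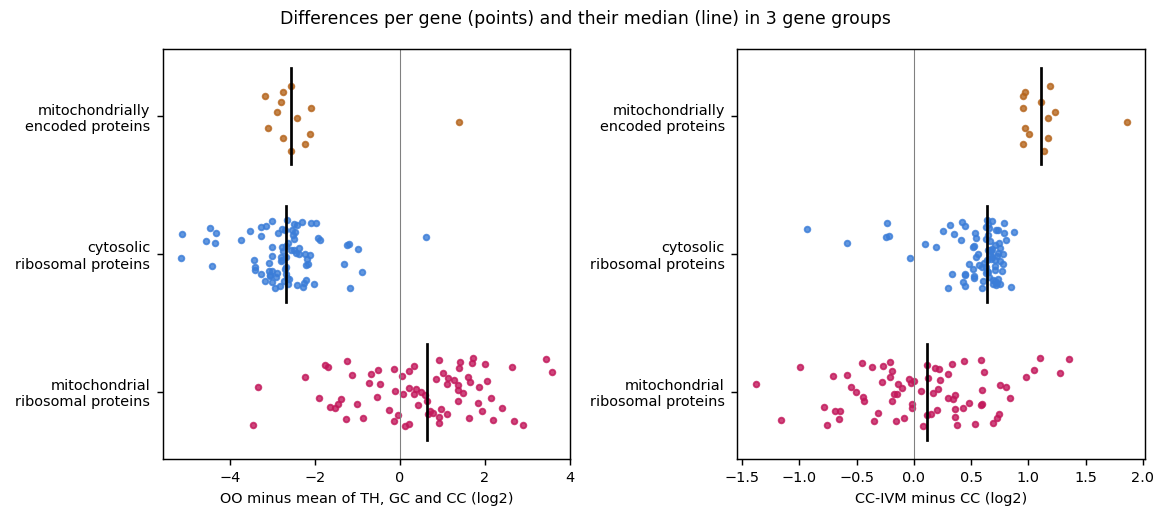
Differences between OO and the somatic mean for the members and for the related gene lists on the log2 scale, with a point per gene and a line at the median of each list. The members have a median of 0.64, the genes of the cytosolic ribosome -2.69 and the mitochondrially encoded genes -2.57.

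The second question was whether the somatic layers differ from each other. Of the 75 members, 22 passed in at least 1 of the 3 pairs, against 38% of all genes. Between TH and GC, 11 passed, against 26.3% of all genes, of which 2 were higher in TH, against 11.8%, and 9 lower, against 14.5%. Between TH and CC, 22 passed, against 31.8%, of which 8 were higher in TH, against 14.4%, and 14 lower, against 17.4%. Between GC and CC, 3 passed, against 9.88%, with 1 higher in GC, against 4.61%, and 2 lower, against 5.28%. Without GC replicate 3 or CC replicate 2 the limma count was 0 (8 and 7 at an unadjusted p under 0.05). Between TH and CC the count was 14 without CC replicate 1. For these fits without 1 array no share of all genes is given, so a shift of all genes cannot be told from one of the members. When arrays were weighted by their quality, 21 members passed between TH and GC (32.8% of all genes) and 37 between TH and CC (43% of all genes). The summed theca markers reached 115 on a GC array and 32.9 on a CC array, and all 6 were above background on some GC array. The 5 granulosa and cumulus markers summed to 150 to 269 on the TH arrays, 352 to 900 on the GC arrays and 752 to 825 on the CC arrays. The part of both lists in these differences was not tested.

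MRPS6, a small subunit protein with a bacterial counterpart (chr1:669920-733729), had the largest of these differences. It read 2.14, 2.34, 2.16 and 2.09 in TH, 3.55, 2.83, 3.52 and 3.98 in GC, and 4.07, 4.17, 4.23 and 4.26 in CC. The groups formed 3 steps without overlap, from TH to GC to CC. TH was below GC by 1.29 ± 0.19 (SE, limma adjusted p = 0.000114) and below CC by 2.00 ± 0.19 (SE, limma adjusted p = 8.79e-07), and GC was below CC by 0.72 (limma adjusted p = 0.0276). In OO it read 3.75, 3.73, 3.80 and 3.80, above GC in mean but within the GC range.

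MRPL50 was lower in TH than in GC (-0.92) and CC (-1.28), as was MRPS23 (-0.87 and -1.28), each without overlap. MRPS9, with a bacterial counterpart, went the other way and was higher in TH than in GC by 0.60 and than in CC by 0.91. In TH it read -0.60, -0.51, -0.62 and 0.23, all above the GC and CC arrays. MRPL51 was higher in TH than in GC by 0.64, and MRPL41 than in CC by 0.56. MRPS14 was lower in CC than in TH by 0.67 and than in GC by 0.75, and a probe of it shares 30 bases with a probe of an unnamed transcript. MRPL53 was higher in CC than in TH by 0.83 and than in GC by 0.56.

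The third question was what 4 h of in vitro maturation did to cumulus cells. All 4 CC-IVM arrays lay on a slide of their own, scanned separately, so the slide and the maturation cannot be told apart. Of the 75 members 25 passed the test, against 45.8% of all genes: 15 were higher in CC-IVM, against 30.3%, and 10 lower, against 15.6%. The direction of this split depended on the scaling: it was 11 higher and 14 lower when the percentile was taken over detected probes (24.7% and 17.7% of all genes). It was 14 and 13 after quantile normalization (12.2% and 16.1%), and 7 and 31 in the deposited median-centred values (43.2% and 22.3%). Leaving out CC replicate 1, 2, 3 or 4 gave 9, 9, 7 and 9 higher, and the lower count was 5 without CC replicate 2, CC replicate 3 or CC-IVM replicate 4 and 6 without CC replicate 4. No share of all genes stands beside these counts, so they do not show whether all genes shifted alike. With the slide as a random block the counts were 24 and 17 (45.8% and 22.1% of all genes). That fit estimated a correlation of -0.261 between arrays of a slide, and it cannot part the slide from the maturation either. The median member difference was 0.11, against 0.37 over all genes and 0.05 over genes above background. The groups did not overlap in 20 members with CC-IVM higher and 10 with CC-IVM lower, against 29.1% and 14.9% of all genes.

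MRPL32 rose from -1.79, -1.72, -1.58 and -1.86 in CC to 0.43, -0.69, -0.62 and -0.66 in CC-IVM. All 4 matured arrays were above the others, with replicate 1 set apart. The difference was 1.35 ± 0.27 (SE, limma adjusted p = 0.00411). MRPL42 read 2.51, 2.60, 2.59 and 2.54 in CC and 4.17, 3.84, 3.76 and 3.58 in CC-IVM, a rise by 1.28 ± 0.19 (SE, limma adjusted p = 0.000716). MRPS18C rose by 1.10, MRPL55 by 1.05 and MRPL15 by 0.98, without overlap. For MRPL55, 3 of its 4 probe sequences gave the rise and probe 4 gave 0.22 (limma adjusted p = 0.553). MRPS31 and MRPL20 passed with 0.62 and 0.84.

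MRPL10 of the stalk had the largest fall. It read 4.19, 4.34, 4.19 and 4.44 in CC and 3.32, 2.65, 2.67 and 3.01 in CC-IVM, with no overlap. It fell by 1.38 ± 0.21 (SE, limma adjusted p = 0.000856), and its probes gave -1.33 and -1.43. MRPL14, of the face that meets the small subunit, read 1.05, 1.35, 1.32 and 1.38 in CC and 0.10, 0.54, -0.09 and -0.09 in CC-IVM, a fall by 1.16 ± 0.21 (SE, limma adjusted p = 0.00215). MRPS12 fell by 0.79 and MRPS9 by 0.71, again without overlap, whereas MRPS34 passed at -0.76 with overlapping groups.

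MRPL12 fell by 0.99, and this was a matter of which sequence was read. Probe 3, on MRPL12-202 alone, read 0.53, 0.84, 1.14 and 0.13 in CC and -2.33, -2.70, -1.10 and -2.58 in CC-IVM, a difference of -2.84 (limma adjusted p = 0.000831). Probes 1 and 4 of the same side gave -1.52 and -1.61, and both passed. Probes 2 and 5, on the side of MRPL12-203, gave -0.35 and -0.40 and did not pass (limma adjusted p = 0.494 and 0.577). In OO all 5 probes were lower than the somatic mean, from -0.92 to -2.43. The readings of probes 1, 3 and 4 in OO overlapped with those in TH. Probe 4, for instance, read -3.305 to -2.244 in OO and -3.237 to -2.127 in TH. Whether probes 1, 3 and 4 read MRPL12 or the neighbouring gene was not tested.

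**Figure D5:**
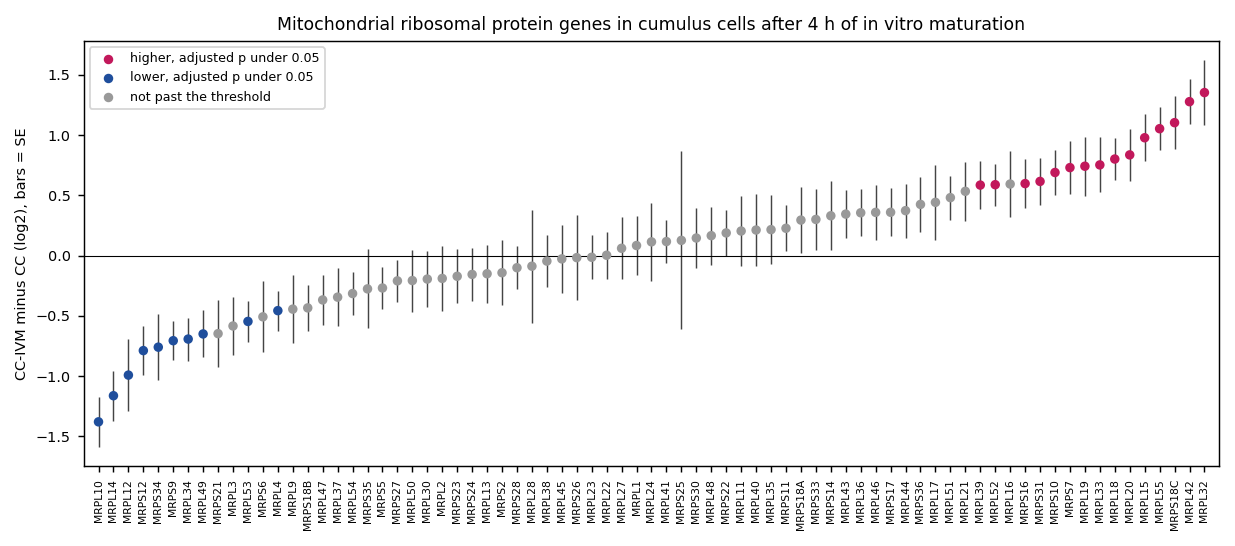
Difference of each of the 75 members between CC-IVM and CC on the log2 scale, with its standard error and n = 4 arrays per group, ordered by size and marked by whether it passed the test. The differences run from -1.38 for MRPL10 to 1.35 for MRPL32, with 15 called higher and 10 lower.

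Counted probe by probe, every sequence of the gene was called higher after maturation in 11 members, against 18.2% of all genes, and lower in 5, against 10.8%. The fall of MRPL53, by 0.55, was again that of probe 1 (-0.79), while probe 2 gave -0.30 and did not pass. MRPL33 (0.75) was annotated at 2 places of 198 bases each, chr14:42647473-42647670 and chr13:2891529-2891726, while the RefSeq table has the gene on chromosome 11. These copies cannot be told apart, since probe 3 was the same sequence for both places and shared 59 bases with probe 2. Probe 1, of the place on chromosome 14, and probe 3 are shown for this reason.
MRPL33 probe 1: tcaaaaacaattctggtgaaaatggtgagc
MRPL33 probe 3: AAGAGAAGCCGACTATGGGAGAAACTGACT

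Of the genes that work with the mitoribosome, the assembly factors had 2 higher and 10 lower in CC-IVM of 27, the translation factors 2 higher and 9 lower of 18, and the aminoacyl-tRNA synthetases 2 higher and 9 lower of 20. Over all genes, 30.3% were higher in CC-IVM and 15.6% lower. The medians of these lists, in the same order, were -0.62, -0.57 and -0.63. The mitochondrially encoded genes had 12 of 13 higher, with a median of 1.11, and the cytosolic ribosome had 36 of 82 higher, with a median of 0.64. The members, with a median of 0.11, lay between these lists, and no difference between lists was tested.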

How the data were processed

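Gene expression was measured on 20 one-colour bovine arrays of a custom 60-mer design, 4 for each of 5 groups, and the groups were taken from the sample labels. Per the file headers and the submitters' processing notes, the authors extracted the intensity of each spot with Agilent Feature Extraction 10.7.3.1, and the design refers to UMD 3.1. They also deposited a log2 table, which equals the log2 median signal minus the median of the array within 5.0e-09. From the deposited intensities, control probes and spots called outliers were left out, log2 of the processed signal was centred on the 75th percentile of each array, and the median was taken over the spots of a gene, with transcript suffixes removed. Probes without a name were named through RefSeq accessions where these matched (818 of 9779), which added no member. The 22518 genes were fitted with limma 3.58.1 (R 4.3.3), with 16 arrays for TH, GC, CC and OO and 8 for CC and CC-IVM, and p-values were adjusted by the Benjamini-Hochberg method over all genes at a threshold of 0.05. The fits were tested on simulated data. The precision is limited by 4 arrays per group.

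The members and gene lists were chosen with earlier results of these data known. Members were named by size: the 8 largest rises and falls in OO without overlap, the 3 largest in each direction for TH, GC and CC, and the 5 largest after IVM without overlap. The 4 with the smallest range of means, those whose probes gave opposite calls, a set of named roles, and the 2 largest changes in each direction of each related list were added. MRPS25, MRPL33, MRPL43 and MRPL54 were chosen after their values were seen. Probe sequences came from the array files, neighbours from RefSeq (ARS-UCD2.0, all 75 symbols matched). Alternatives were other scalings, normexp with an offset of 50, the deposited table, the mean or brightest probe, leaving out dim genes, 1 fit of all 20 arrays, replicate and slide blocks, fits within a slide, array weights, the methods' analysis of variance and leaving out each array. Same-numbered TH and GC replicates deviated together (r of 0.196 to 0.443 over 4 pairs, from these data and not from the labels). A count by every probe was chosen after seeing the data.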

Additional observations from a re-analysis of the deposited data

Results flagged for a closer look

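Sets of 4 arrays were examined, 1 in each group for each of 42 named genes, of which ICT1 is not a member by its array name. Of these 210 sets, the highest or lowest array lay far from the other 3 in 19. The median level of all members also had such an array in TH. Chance alone gives this in about 1 in 20 sets. TH replicate 4 was the array concerned in 8 cases. It was high for MRPS34 (3.145), MRPL12 (-0.6609), MRPL23 (4.709), MRPS26 (3.158), MRPS9 (0.2292), MRPS12 (0.0023) and MRPS18A (-0.2648), and its median member level was 2.086. It was the highest TH array in 49 of the 75 members, and in 15 of the 16 whose probes hold over 50% GC, against 32.9% of all genes.

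In CC-IVM, replicate 1 stood high for MRPL32 (0.428), MRPL44 (0.09067), MRPL41 (4.482) and MRPL3 (3.642), and replicate 3 for MRPS12 (-2.023). Replicate 1 was the highest CC-IVM array in 51 of the 75 members, against 31% of all genes. In OO, replicate 3 stood high for MRPL50 (0.3243) and MRPL1 (-2.122), replicate 4 for MRPL2 (4.257), and replicate 2 stood low for MRPL24 (-1.137). In GC, replicate 2 was low for MRPS9 (-1.233) and replicate 4 high for MRPL42 (2.826), and in CC replicate 2 was high for MRPL12 (-1.103). The cause of these deviations was not tested.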

How the results depend on the processing

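The F-test count (60) stayed between 44 and 67 and the OO counts within 1.5 times of 42 and 18 under every alternative, and the median OO difference was 1.19 in the deposited values against 0.64. MRPL10 in OO was 0.16 (limma adjusted p = 0.304) there. TH against GC had 11 members and gave 6 in the deposited values, where 24.3% of all genes passed. Within slides 1 and 2 it gave 0 and 1 (3 unadjusted in slide 1), against 10% and 12.5% of all genes. With array weights it gave 21, against 32.8%. TH against CC, with 22, gave 2 in each slide, against 14.7% and 18.4% of all genes, and 37 with weights, against 43%. For GC against CC no share of all genes was counted under these settings. GC against CC, with 3, gave 6 after quantile normalization, 1 with median centring, 5 with the detected-probe percentile, 5 with the dim filter, 1 with all 20 arrays, 6 with weights, and 0 in each slide (3 and 2 unadjusted, limma). After IVM the 15 higher became 7 in the deposited values, 7 with the replicate block and 24 with slide as a random block. The shares of all genes were 43.2%, 18.4% and 45.8%. The 10 lower became 18 with normexp, 31 in the deposited values, 4 with the replicate block and 17 with the random block. The shares of all genes were 13.1%, 22.3%, 12.9% and 22.1%. The lower count was 5 when every probe had to pass, against 10.8%, and the median member difference became -0.25 in the deposited values. The cause of these shifts was not tested, and no slide held both CC and CC-IVM.

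Leaving out 1 array gave 58 to 62 members by the F-test, 40 to 43 higher and 16 to 19 lower in OO with medians of 0.57 to 0.65, 8 to 14 for TH against GC, 14 to 23 for TH against CC, 0 to 3 for GC against CC, and 7 to 15 higher and 5 to 15 lower after IVM with medians of -0.02 to 0.19. These counts have no share of all genes beside them and do not show whether all genes shifted alike. Same-numbered replicates deviated together with r from -0.264 to 0.443 over 24 pairs of cell types, 13 of them over 0.1, and from -0.221 to -0.0262 over 4 pairs of CC and CC-IVM. Only between TH and GC were all 4 pairs over 0.1 (0.196 to 0.443), and the replicate block left their count at 11. Same-numbered arrays of TH, GC, CC and OO also shared a slide, and whether they share animals was not tested. The replicate block changed the count by over 1.5 times only in the IVM comparison and gave 41 higher and 18 lower in OO. The median over all genes for OO was -0.52, and it was -0.01 after quantile normalization and -1.30 with normexp.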

Other observations

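Some arrays departed from their group in step with the base composition of the member probes. For each array, the deviation of the 75 members from their group mean was set against probe GC content. Pearson's r, across genes of 1 array that share its hybridisation, was 0.63 for TH replicate 4, 0.39 for GC replicate 4, 0.46 for CC-IVM replicate 3 and 0.47 for OO replicate 1, and it was -0.53 for OO replicate 3 and -0.52 for TH replicate 2. It was also -0.49 for TH replicate 1, -0.47 for CC replicate 1, -0.38 for TH replicate 3 and 0.31 for CC replicate 2. For GC replicate 3 it was -0.385 and for OO replicate 2 it was -0.37. It was nearer 0 on some arrays, such as -0.16 for GC replicate 2, -0.12 for CC-IVM replicate 4 and -0.19 for OO replicate 4. Over genes above background the values for TH replicate 4 and OO replicate 1 were 0.18 and 0.36. GC replicate 4 was the highest GC array in 59 of the 75 members, and in 15 of the 16 with over 50% GC, against 36.8% of all genes.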
